A study of Rattus norvegicus with 20 samples.

Results

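The antioxidant and glutathione defence of the rat kidney was followed through 10 genes after 28 days of a calcineurin inhibitor: Gclc, Gclm, Cat, Sod1, Sod2, Gpx1, Gpx3, Txnrd1, Nqo1 and Hmox1. They were chosen by name from the gene symbols of the deposited tables, and all 10 were found, of 32907 genes listed in either table. The animals were wild-type male Wistar rats, 10 to 12 weeks old. A minipump under the skin delivered drug or vehicle for the whole 28 days. Cyclosporine A was dosed to a trough of 3 mg/ml as the labels write it and had a saline vehicle (4 libraries each). Tacrolimus was dosed to a trough of 3.5 ng/ml and had a vehicle of 25% DMSO and 75% PEG500 (6 libraries each). RNA came from the whole kidney, so a gene can be lower because fewer cells of a type were present or because each cell held less of its RNA, and these cannot be told apart. The labels number the replicates but do not state that each came from a separate animal, so the p-values measure the spread between these libraries.

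Glutathione is a small thiol made from glutamate, cysteine and glycine. Glutamate-cysteine ligase, a catalytic subunit (Gclc) with a modifier subunit (Gclm), makes the rate-limiting step, and glutathione synthetase (Gss) adds glycine. Superoxide dismutases turn superoxide into hydrogen peroxide, which catalase in peroxisomes, glutathione peroxidases and the thioredoxin system then remove. Several of these genes, Nqo1, Hmox1, Gclc, Gclm and Txnrd1 among them, are textbook targets of the transcription factor Nrf2 (gene Nfe2l2), which Keap1 holds in check. The proximal tubule is known for high glutathione turnover and is the main source of the secreted plasma peroxidase encoded by Gpx3.

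The libraries of the cyclosporine A table stood apart in a way that bears on every value below. Mitochondrially encoded genes held 59.8% ± 7.97 (SD, n = 4; range 49.7 to 68.6) of the fragments with saline and 84.7% ± 4.68 (n = 4; range 80.2 to 90.8) with cyclosporine A (two-sided exact permutation p = 0.0286, the smallest that 4 against 4 allow; 0.0571 adjusted over 6 measures). In the tacrolimus table the share was 11.9% ± 1.13 (n = 6) with vehicle and 12.4% ± 1.88 (n = 6) with drug (exact permutation p = 0.606). Libraries held 30468767 to 34308899 fragments in the first table and 31670202 to 39358485 in the second, but nuclear genes held only 2905839 to 6549282 of them with cyclosporine A. Cyclosporine A replicate 4 had the fewest. The deposited FPKM (fragments scaled to gene length and library size) of this table count mitochondrial fragments in the total, so nuclear genes are spread over a smaller share in the drug group. Values in the cyclosporine A table are therefore given as rescaled FPKM, which set the median ratio of nuclear genes between libraries to be equal. The deposited scale is given for counts of calls and for some of the genes, not beside every value. The levels of kidney markers in the saline libraries were uneven. The 10 proximal tubule markers had means from 0.165 (Slc5a12) to 441 (Miox) rescaled FPKM, with Slc34a1 at 130 ± 26.2 (SD, n = 4) but Slc5a2 at 0.282 and Slc22a8 at 6.39. The 5 podocyte markers had means from 0.141 (Wt1) to 2.19 (Podxl), so these glomerular genes were near 0. In the DMSO/PEG libraries of the separately normalized tacrolimus table, Slc5a12, Slc5a2, Slc22a8, Wt1 and Podxl were at 71.4, 144, 402, 4.59 and 30.8 FPKM.

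The 10 genes span a wide range of levels. In the saline libraries Gclc was the highest, at 1099.8 ± 93.3 rescaled FPKM (n = 4), the 7th highest of all nuclear genes. Sod1 (602 ± 37.1), Gpx3 (530.02 ± 182) and Gclm (442 ± 26.5) followed, and neighbours in that run overlapped between libraries. Gpx1 (231 ± 28.0) and Cat (211 ± 11.3) overlapped as well, while Sod2 (45.2 ± 1.02), Txnrd1 (19.5 ± 1.52), Nqo1 (4.00 ± 2.13) and Hmox1 (0.934 ± 0.471) lay apart from each neighbour. In the DMSO/PEG libraries the order was led by Gpx3, at 16762 ± 2063 FPKM as deposited (n = 6), which was the most abundant nuclear gene there and took 2.50% to 3.19% of the nuclear fragments. In the saline libraries Gpx3 took 0.224% to 0.451% of them. The tables were normalized separately and differ in vehicle, so these levels were not compared by a test.

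With cyclosporine A, both subunits of glutamate-cysteine ligase were measured below the saline level in every library. Gclc (rn6 chr8:85059051-85097468, + strand) read 1189, 1172, 1019.6 and 1019 rescaled FPKM in saline replicates 1 to 4, and 603, 856, 696 and 406 in cyclosporine A replicates 1 to 4. The highest drug library was below the lowest vehicle library, and cyclosporine A replicate 4 was the lowest. The mean was 41.8% lower, a log2 fold change of -0.83 (SE 0.21) on the log2(FPKM + 1) scale, with a limma adjusted p of 0.0998. Gclm (chr2:225827504-225847874, + strand) read 449, 472, 441 and 408 in the saline libraries and 265, 354, 279 and 180.1 with cyclosporine A. These groups did not overlap either, the mean was 39.1% lower, and the log2 fold change was -0.75 (SE 0.18, limma adjusted p = 0.0931). Catalase, Cat (chr3:93379874-93412058, - strand), read 217, 221, 208 and 196 with saline and 146, 163, 152 and 104 with cyclosporine A. It is the other gene of the 10 with no overlap, at 33.0% below saline and a log2 fold change of -0.59 (SE 0.14, limma adjusted p = 0.0892). Among the cyclosporine A libraries, Gclc, Gclm and Cat each fell in order of the mitochondrial share. That share was 80.2%, 82.0%, 85.6% and 90.8% in replicates 2, 3, 1 and 4. No such order was seen among the saline libraries, and the part of the share in these values was not tested.

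None of the 10 genes passed the adjusted p threshold of 0.05 on rescaled FPKM, where 0.609% of the 13455 genes tested did (82 genes, limma). At an unadjusted p under 0.05 there were 6 of the 10 (Cat, Gclm, Gclc, Txnrd1, Gpx3 and Gpx1), against 16.15% of all genes. The drug group lay wholly below the saline group for 3 of the 10, against 6.06% of all genes. These 3, Gclc, Gclm and Cat, ran together over the 8 libraries (Pearson r = 0.987 to 0.993). The counts are therefore not of independent genes. Limma's voom on recovered fragments called 2 of the 10, Gclm and Cat, both lower, against 2.01% of all genes in that fit, and limma with array weights called 0, against 1.11%. The median log2 fold change of the 10 was -0.30, against 0.00 for all genes tested. Without cyclosporine A replicate 4, the library with the highest mitochondrial share, the log2 fold changes were -0.63 for Gclc, -0.57 for Gclm and -0.45 for Cat, with limma adjusted p of 0.0777, 0.0648 and 0.0560.

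**Figure D1:**
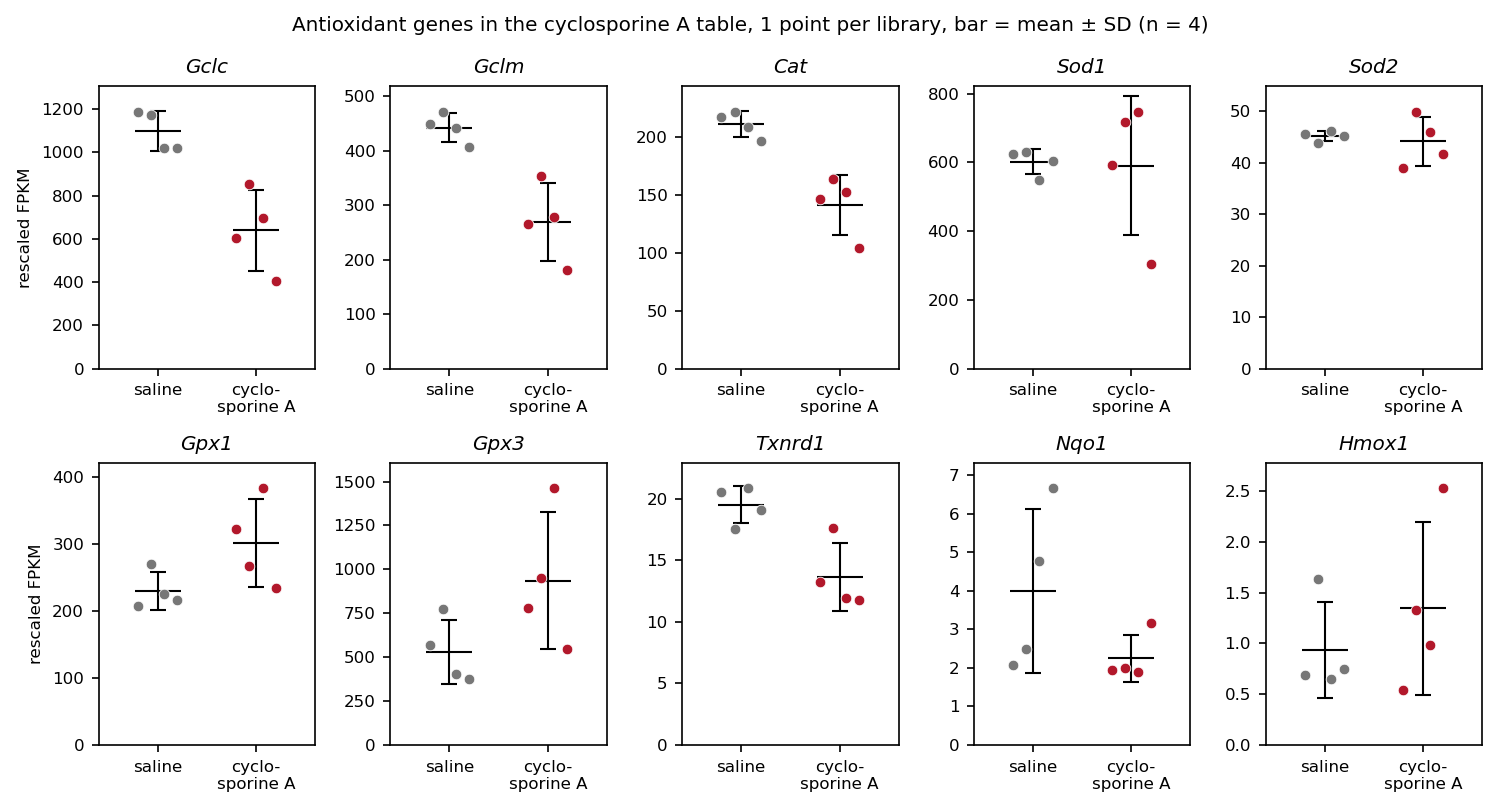
Rescaled FPKM of the 10 genes in the cyclosporine A table, 1 panel per gene with an axis from 0; grey points are the 4 saline libraries and red points the 4 cyclosporine A libraries, drawn in order of replicate from left to right, with mean and SD as bars. Gclc, Gclm and Cat do not overlap between groups, while Gpx3 and Gpx1 have their highest library with cyclosporine A (1462 and 384).

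Thioredoxin reductase 1, Txnrd1 (chr7:26946125-26984400, - strand), which keeps cytosolic thioredoxin reduced, read 20.5, 17.5, 20.8 and 19.1 with saline and 13.2, 17.6, 11.9 and 11.8 with cyclosporine A. Replicate 2 of the drug group lay just inside the saline range and the other 3 below it, giving a log2 fold change of -0.50 (SE 0.14, limma adjusted p = 0.122). Among 8 fits that each left out 1 library, the fit without that library was the only one to call any of the 10 genes, and it called Txnrd1 (limma adjusted p = 0.0493). The Txnrd1 values of this table correspond to whole fragments only at a gene length of 3377 bases, against 3430 listed.

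The glutathione peroxidases had higher means with cyclosporine A on this scale. Gpx3 (chr10:40247436-40255422, + strand) read 568, 772, 404 and 377 with saline and 782, 953, 1462 and 549 with cyclosporine A. Of the 4 drug libraries 3 were above the highest saline library, and replicate 3 was the highest of all. The log2 fold change was 0.79 (SE 0.31, limma adjusted p = 0.252) on rescaled FPKM but -0.54 (limma adjusted p = 0.210) on deposited FPKM. Gpx1 (chr8:117117430-117118522, + strand), the cytosolic peroxidase, read 208, 271, 226 and 217 with saline and 323, 267, 384 and 234 with cyclosporine A. Replicates 1 and 3 of the drug group were above the saline range and the others inside it. Its log2 fold change was 0.37 (SE 0.16, limma adjusted p = 0.299) on rescaled FPKM and -0.96 (limma adjusted p = 0.0125) on deposited FPKM, so the direction of both peroxidases turned with the scale.

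On rescaled FPKM the means of the superoxide dismutases lay near those of saline. On deposited FPKM both were called lower without overlap (Sod1 -1.44, limma adjusted p = 0.00360, and Sod2 -1.34, 0.00129). On that scale 81.1% of all genes were called, their median log2 fold change was -0.89, and the share without overlap was not counted. Sod1 (chr11:30363280-30368862, + strand), the cytosolic enzyme, read 624, 631, 549 and 605 with saline and 593, 718, 748 and 306 with cyclosporine A. Replicate 4 of the drug group was far below every other library and replicates 2 and 3 were above all saline libraries. The log2 fold change was -0.11 (95% interval -0.67 to 0.46, limma adjusted p = 0.884), and 0.18 without replicate 4. Sod2 (chr1:47914759-47921587, - strand), the mitochondrial enzyme, read 45.6, 43.8, 46.2 and 45.2 with saline and 39.1, 49.9, 46.0 and 41.7 with cyclosporine A. The groups overlapped, with a log2 fold change of -0.04 (95% interval -0.26 to 0.18, limma adjusted p = 0.894), or 0.05 when scaled to the total of nuclear fragments. The interval is narrow for Sod2 and wide for Sod1, where 1 library carries the spread.

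Nqo1 and Hmox1 had the lowest levels of the 10 genes. Nqo1 (chr19:38422164-38437180, + strand), a quinone reductase, read 2.09, 2.49, 4.77 and 6.66 with saline and 1.95, 2.00, 1.90 and 3.17 with cyclosporine A. The saline libraries themselves spread widely, and the log2 fold change was -0.54 (SE 0.28, limma adjusted p = 0.384). Hmox1 (chr19:14508616-14515456, + strand), which breaks down haem, read 0.692, 1.64, 0.654 and 0.753 with saline and 0.543, 1.33, 0.987 and 2.53 with cyclosporine A. Only 16 to 105 fragments lie behind each Hmox1 value. Its log2 fold change of 0.24 (95% interval -0.32 to 0.80, limma adjusted p = 0.693) was 0.02 without cyclosporine A replicate 4 and 0.42 without cyclosporine A replicate 1, and it turned to -0.43 on deposited FPKM.

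On the deposited scale the same 10 genes gave another count. All 10 were lower with cyclosporine A there and 9 were called (limma), every one except Gpx3. The background on that scale was 81.1% of all genes tested, and the median log2 fold change of all genes was -0.89. Gclc read 1464 to 2366 FPKM with saline and 172 to 697 with cyclosporine A, a log2 fold change of -2.16 (limma adjusted p = 0.000537). Gclm was at -2.08, Cat at -1.92, Txnrd1 at -1.74 and Nqo1 at -1.51. The value on the deposited scale minus that on the rescaled one was -1.33 for Gclc, Gclm, Sod1, Cat, Gpx1 and Gpx3, -1.30 for Sod2 and -1.25 for Txnrd1. It was -0.97 for Nqo1 and -0.67 for Hmox1, whose low levels weigh less against the added 1 FPKM.

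Ratios between genes within a library do not depend on how libraries are scaled. The 7 pairs were formed after the values had been seen, so their separation is a description and was not tested. The Gclc to Gclm ratio was 2.31 to 2.65 with saline and 2.26 to 2.50 with cyclosporine A, overlapping, while Gclc itself ranged from 406 to 1189. The Gclc to Sod2 ratio was 22.1 to 26.8 with saline and 9.75 to 17.1 with the drug. The 2 ranges did not meet, nor did those of Cat to Sod2 (4.33 to 5.05 against 2.49 to 3.74). The peroxidase stood the other way. Gpx1 to Gclc was 0.175 to 0.231 with saline and 0.312 to 0.576 with cyclosporine A, and Gpx1 to Cat was 0.958 to 1.22 against 1.64 to 2.53. Gpx3 to Gpx1 and Sod1 to Sod2 overlapped between groups, and in the tacrolimus table all 7 ratios overlapped between drug and vehicle.

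**Figure D2:**
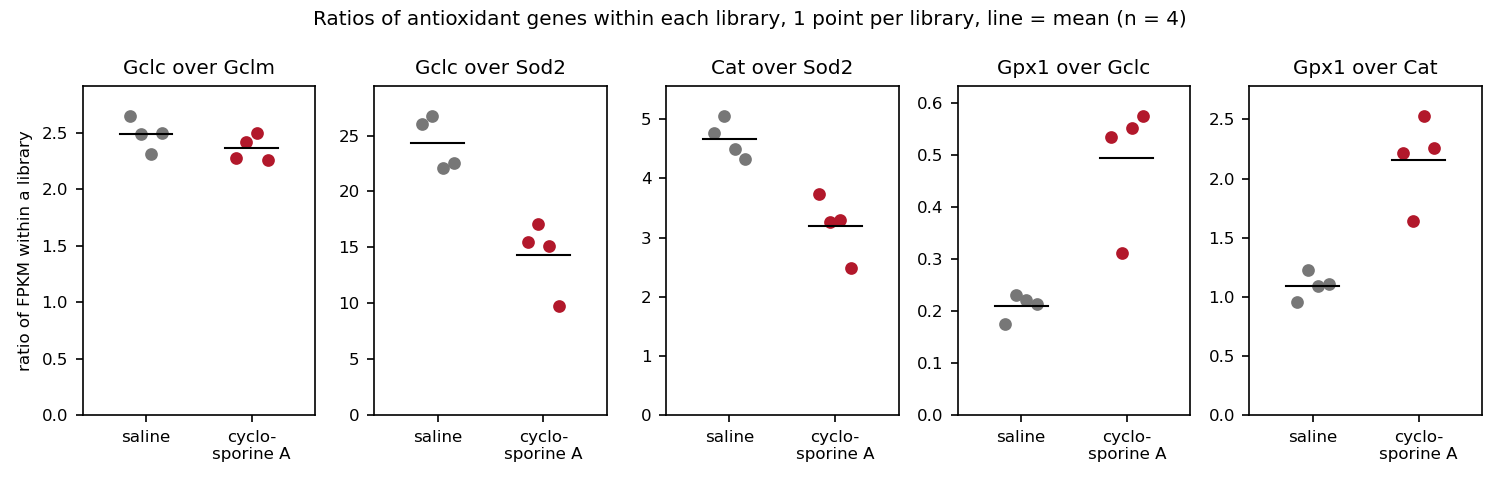
Ratio of the FPKM of 2 genes in the same library, 1 panel per ratio with an axis from 0; grey points are saline libraries, red points cyclosporine A libraries and black lines group means. Gclc over Gclm overlaps between groups (2.31 to 2.65 and 2.26 to 2.50), and the other 4 ratios shown do not.

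The enzyme after glutamate-cysteine ligase in the pathway, glutathione synthetase, is not among the 10 and was called. Gss read 189, 180.2, 179.9 and 187 rescaled FPKM with saline and 111, 87.5, 118 and 85.8 with cyclosporine A. It fell by 0.88 on the log2 scale (SE 0.12, limma adjusted p = 0.0252), with all 4 drug libraries below all 4 saline libraries. The only other called gene of the 9 related lists was Me1, malic enzyme, which makes NADPH. Me1 read 40.6, 36.4, 45.7 and 41.8 with saline and 26.4, 22.6, 22.5 and 20.9 with cyclosporine A, a fall of 0.81 on the log2 scale (log2 fold change -0.81, SE 0.11, limma adjusted p = 0.0229). With 1 library left out the log2 fold changes stayed between -0.96 and -0.81 for Gss and between -0.87 and -0.76 for Me1, but fewer genes were called in most of these fits (82 over all genes with every library, and 15, 28, 3 and 1 without saline replicate 1, 2, 3 and 4). Gss was not called without saline replicate 1, 2, 3 or 4 (limma adjusted p = 0.0894, 0.0562, 0.0851 and 0.0936), and Me1 was not called without saline replicate 1, 3 or 4 or cyclosporine A replicate 3 (0.0833, 0.0851, 0.0936 and 0.0561). Both also missed the threshold with no filter on low values (0.0539 each) and with a replicate block (0.0653 each). On deposited FPKM, where 81.1% of all genes were called, Gss was at -2.20 and Me1 at -2.09 (limma adjusted p = 0.000326 and 0.000324).

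Around these genes, the list of glutathione synthesis and recycling had 1 of 16 tested genes called lower (Gss) and 15 of 16 with a log2 fold change below 0, with a median of -0.34 against 0.00 for all genes. Other Nrf2 targets had 1 of 18 called lower (Me1) and a median of -0.20. The other 7 lists had no gene called (limma), with 29 genes at an unadjusted p under 0.05 among their 89 tested (over all genes 16.15% had such a p). With limma voom on the recovered fragments 5 genes of those lists were called lower (Gstp1, Blvra, Dao and both Mt1 entries), and with array weights 2 (Gstp1 and Mt1), where 2.01% and 1.11% of all genes were called. Without cyclosporine A replicate 1, 2 or 4 the same 7 lists had 1 call each, Gstp1, Blvra and Mt1 (limma adjusted p = 0.0496, 0.0436 and 0.0473), where 0.193%, 0.706% and 1.03% of all genes were called. Of the Nrf2 regulators, 0 of 12 were called and the median was 0.01. Nfe2l2, which encodes Nrf2, was 14.6 ± 0.220 rescaled FPKM with saline and 18.4 ± 1.61 with cyclosporine A (n = 4 each). All 4 drug libraries were above all 4 saline libraries, with a log2 fold change of 0.31 (limma adjusted p = 0.153) that turned to -0.94 on deposited FPKM. For the cyclosporine A table, the share of all genes higher without overlap was not counted, for this gene or those below. Dpp3, which binds Keap1, was 6.77 ± 0.803 and 4.06 ± 1.52 (log2 fold change -0.67, limma adjusted p = 0.164).

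Some smaller families had medians above 0 on rescaled FPKM without a call. Among the other glutathione peroxidases and superoxide dismutases, 0 of 5 tested were called, the median was 0.23, and Gpx2 (4.64 to 8.80 rescaled FPKM, group means) and Gpx8 (1.79 to 2.92) had limma adjusted p of 0.247 and 0.358. Genes of superoxide and peroxide sources had 0 of 13 called, with Rac2, the GTPase of the phagocyte oxidase, at 3.66 against 7.60 (limma adjusted p = 0.186). Gpx2, Gpx8 and Rac2 were below 0 on deposited FPKM (-0.31, -0.42 and -0.28). In the same list Dao, a peroxisomal oxidase of D-amino acids, was 366 ± 17.4 with saline and 247 ± 40.3 with the drug, without overlap (log2 fold change -0.58, limma adjusted p = 0.0847).

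The thiol and conjugation enzymes were mixed. Of 16 thioredoxins, glutaredoxins and peroxiredoxins 0 were called, and Prdx6 (log2 fold change -0.43, limma adjusted p = 0.0995) and Glrx (0.68, 0.122, and -0.33 on deposited FPKM) each had groups that did not overlap. Of 20 glutathione S-transferases 0 were called, with a median of -0.18. Gstp1 had a log2 fold change of -1.29 (limma adjusted p = 0.0807) with overlapping groups, and Gstk1 of -0.41 (0.106) without overlap. Near-identical copies within this family can share fragments, so single members are uncertain. Haem breakdown and iron storage had 0 of 10 called, with Blvra, biliverdin reductase, at -0.66 (limma adjusted p = 0.0913) and Hp, haptoglobin, at 0.45 (0.151, and -0.03 on deposited FPKM). Selenoprotein synthesis and metallothioneins had 0 of 13 called. A pair of gene identifiers carries the symbol Mt1, at -0.58 and -0.75 (limma adjusted p = 0.0890 and 0.0974), and fragments of these copies may not be separable.

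**Figure D3:**
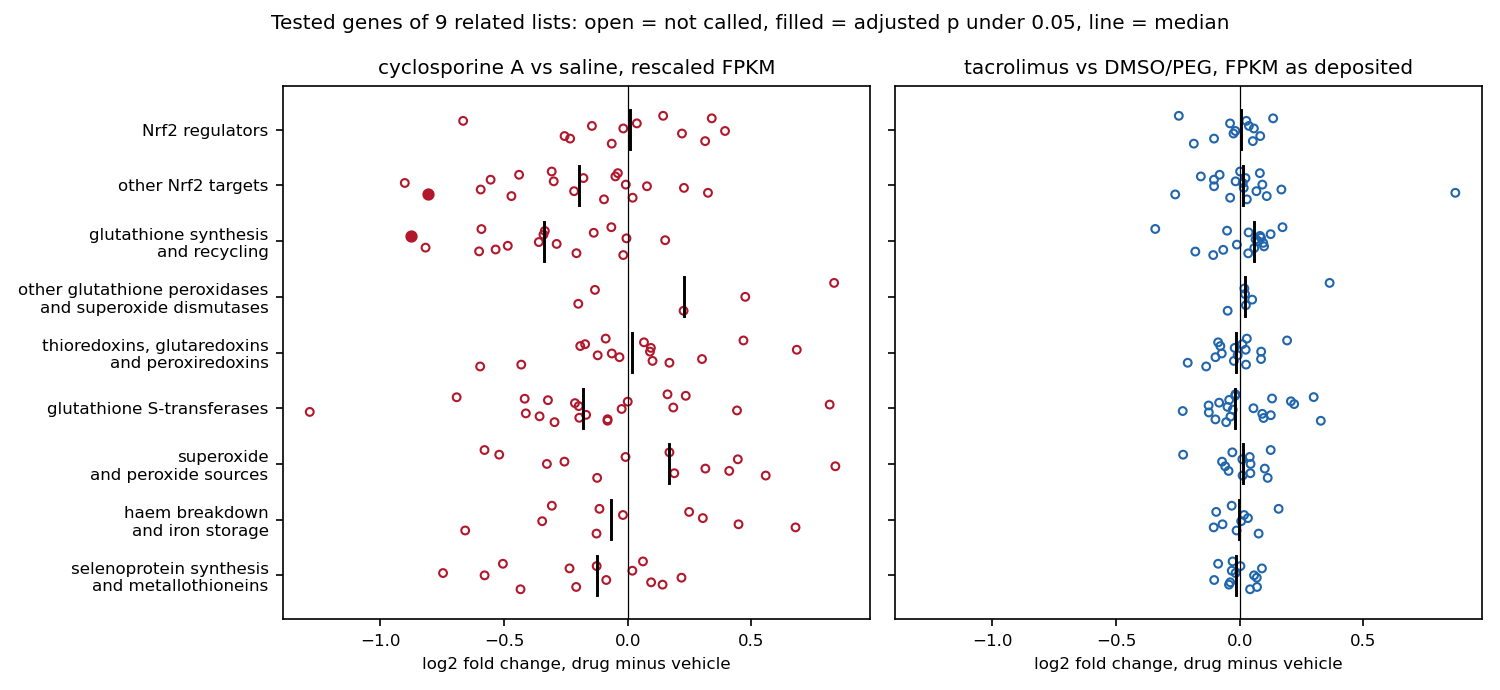
Log2 fold change of every tested gene of 9 related lists, cyclosporine A on the left in red and tacrolimus on the right in blue, on the same x axis; filled points passed an adjusted p under 0.05 and black lines are list medians. Gss and Me1 are the 2 filled points, both on the left, and the list of glutathione synthesis and recycling has the lowest median (-0.34).

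Markers of several cell types also differed between the groups of the cyclosporine A table, and their part in the results above was not tested. Proximal tubule markers had 1 of 10 called, Slc5a2 higher (0.282 to 1.47 rescaled FPKM, group means, limma adjusted p = 0.0382), and none called lower. Slc5a12 was higher without overlap (0.165 and 0.641, limma adjusted p = 0.155). Aqp1 (373 ± 56.8 and 235 ± 73.3, log2 fold change -0.71, limma adjusted p = 0.168), Lrp2 (23.8 ± 3.84 and 15.9 ± 4.28, -0.58, 0.187) and Cubn (5.01 ± 0.577 and 3.04 ± 0.650, -0.58, 0.0986), a water channel and the megalin and cubilin uptake receptors, had every drug library below every saline library, although none was called. The summed level of the 10 markers was 879 to 1265 with saline and 482 to 1181 with the drug, overlapping, and none of the 10 was at 0 in the group means. Thick ascending limb markers had 1 of 6 called lower (Umod, -1.36, limma adjusted p = 0.0491) with summed levels of 370.01 to 633 and 188 to 303. Slc12a1 (-0.94, limma adjusted p = 0.0510) and Cldn10 (-0.44, 0.158) of the same list were lower without overlap. Of the 6 only 1, Cldn16, was above 0 (0.21). Distal convoluted tubule markers had 1 of 5 called lower (Calb1, -1.85, limma adjusted p = 0.0252), with summed levels of 54.2 to 79.2 and 25.4 to 35.1. Calb1 was at 55.6 and 15.2, while the log2 fold changes of Slc12a3 (0.27), Klhl3 (0.24), Trpm6 (-0.06) and Slc8a1 (-0.16) were nearer 0 and none was called. Urothelium markers had 1 of 5 called higher (Upk1a, 1.30 and 5.49, log2 fold change 1.52, limma adjusted p = 0.0194), with summed levels of 3.88 to 14.9 and 10.6 to 20.4. Upk1b was higher without overlap (0.78, limma adjusted p = 0.0942). Of the 5 urothelium markers 4 were above 0, and Psca was at -0.15. Endothelial markers had 0 of 6 called, with summed levels of 23.1 to 41.9 and 17.7 to 31.9. Plvap was lower without overlap (14.4 and 2.68, log2 fold change -1.97, limma adjusted p = 0.0675), while 2 of 6 were above 0, Egfl7 and Kdr (0.24 each). On deposited FPKM, where 81.1% of all genes were called, 7 of 10 proximal tubule markers were called lower and 1 higher. All 6 thick ascending limb and all 6 endothelial markers were called lower there, with 3 of 5 distal convoluted tubule markers. Of 5 urothelium markers 1 was called lower and 0 higher.

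The remaining marker lists of that table had no gene called (limma). An unadjusted p under 0.05 was reached by 3 erythroid, 3 principal cell, 2 podocyte, 2 macrophage, 2 tubular injury, 1 inner medulla and 1 respiration gene. Erythroid genes, haemoglobins among them, had 6 of 7 log2 fold changes above 0 (median 1.36), with summed levels of 355 to 970.3 and 567 to 5767. Tubular injury genes had 6 of 6 above 0 (median 0.49, summed levels 114 to 183 and 149 to 334), and Clu, a secreted chaperone, was higher without overlap (6.82 and 18.1, log2 fold change 1.19, limma adjusted p = 0.0958). Principal cell markers had 7 of 7 above 0 (median 0.30, summed levels 113 to 194 and 128 to 268), with the sodium channel subunits Scnn1g (0.40, limma adjusted p = 0.180) and Scnn1b (0.27, 0.290) higher without overlap. Intercalated cell markers had 5 of 6 above 0 (median 0.29, 107 to 203 and 148 to 272), and podocyte markers 4 of 5 (median 0.47, 2.92 to 5.19 and 4.26 to 12.01), with Wt1 higher without overlap (limma adjusted p = 0.249). Macrophage markers had 6 of 9 above 0 (50.5 to 112 and 54.0 to 161) and adipocyte markers 3 of 5 (33.0 to 65.4 and 34.4 to 60.8). Inner medulla markers had 3 of 6 above 0, with summed levels of 346 to 497 and 182 to 335 in which Aqp1, also a proximal tubule marker, is the largest part. Nuclear genes of mitochondrial respiration had 2 of 8 above 0 (1143 to 1277 and 1012 to 1190), with Atp5f1a lower without overlap (limma adjusted p = 0.180). None of 8 lymphocyte markers was high enough to test. On deposited FPKM, where the median of all genes was -0.89, fewer genes of each of the tested lists were above 0. They numbered 5 of 7 erythroid, 1 of 6 tubular injury, 0 of 7 principal cell and 0 of 6 intercalated cell genes. For the rest they numbered 2 of 5 podocyte, 0 of 9 macrophage, 0 of 5 adipocyte, 0 of 6 inner medulla and 0 of 8 respiration genes.

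With tacrolimus, 0 of the 10 genes were called (limma), against 0.303% of the 15493 genes tested (47 genes), and 1 was at an unadjusted p under 0.05. Voom and array weights gave 0 calls as well. No gene of the 10 had groups without overlap, against 0.975% of all genes. The lowest p belonged to Sod2, which ranged from 152 to 169.9 FPKM with vehicle (median 164) and from 128 to 161 with tacrolimus (median 149). Of the 6 drug libraries 4 were below every vehicle library and replicate 6 was the lowest. The log2 fold change was -0.14 (SE 0.06, unadjusted p = 0.0252 and limma adjusted p = 0.459). An unadjusted p under 0.05 was seen for 8.58% of all genes tested.

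The 3 genes without overlap under cyclosporine A, Gclc, Gclm and Cat, were near their vehicle under tacrolimus. Gclc ranged from 1347 to 1682 FPKM with vehicle (median 1492) and from 1385 to 1807 with tacrolimus (median 1544), a log2 fold change of 0.09 (95% interval -0.11 to 0.29, limma adjusted p = 0.880). Gclm ranged from 669 to 922 with vehicle (median 807) and from 827 to 1026 with tacrolimus (median 852), a log2 fold change of 0.14 (95% interval -0.04 to 0.33, limma adjusted p = 0.713). Cat was 465 to 609.7 with vehicle and 515 to 576 with the drug, a log2 fold change of 0.07 (95% interval -0.09 to 0.22, limma adjusted p = 0.886). All 3 drug ranges overlapped their vehicle's. Gpx3 had ranges of 14453 to 19696 and 15425 to 22355 FPKM, with replicate 6 of the drug group the highest, and a log2 fold change of 0.07 (95% interval -0.38 to 0.53, limma adjusted p = 0.963). Txnrd1 (0.04), Gpx1 (0.05), Sod1 (-0.05), Hmox1 (-0.06) and Nqo1 (-0.13) had limma adjusted p between 0.795 and 0.962.

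**Figure D4:**
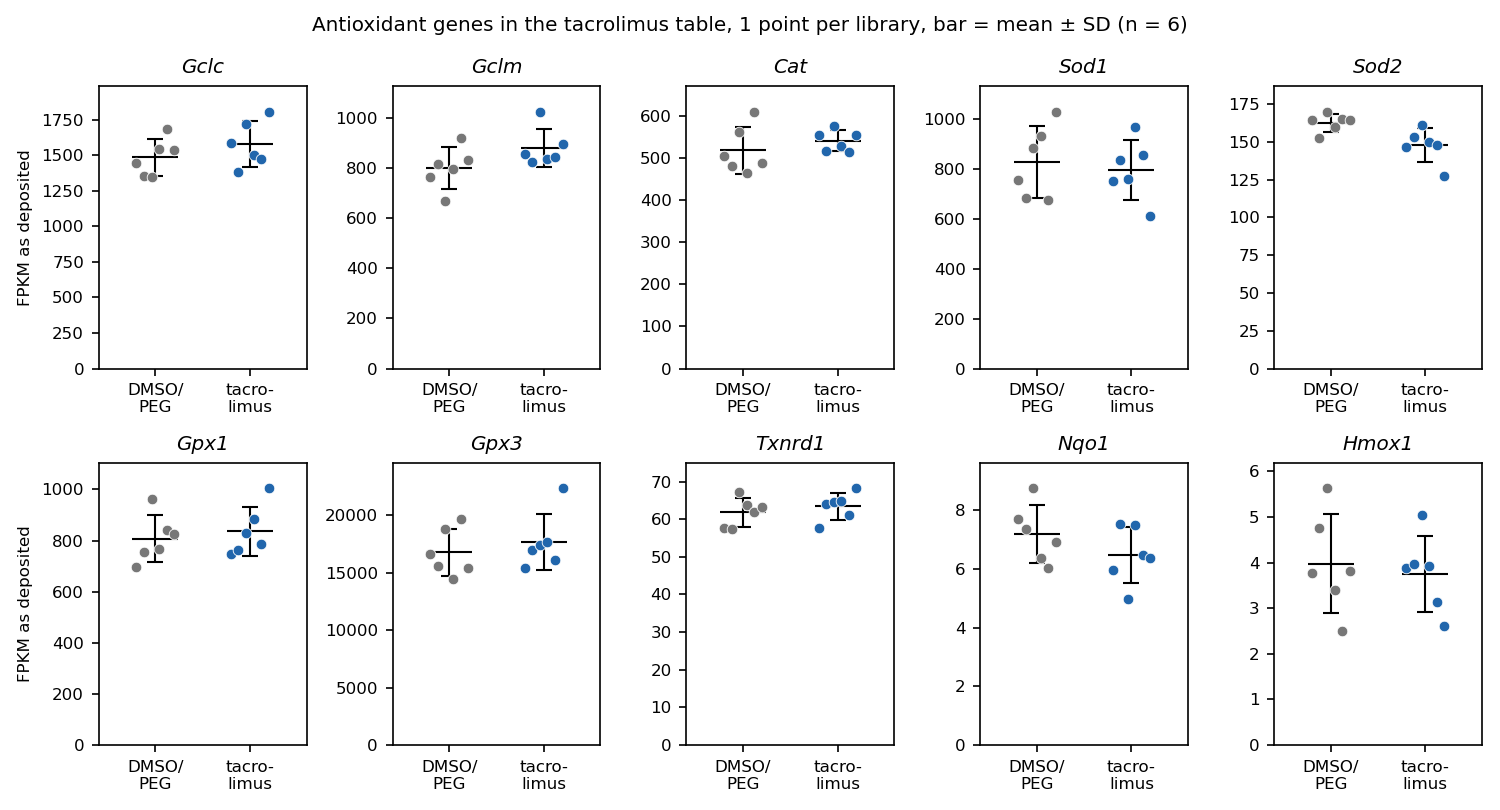
FPKM as deposited of the 10 genes in the tacrolimus table, 1 panel per gene with an axis from 0; grey points are the 6 DMSO/PEG libraries and blue points the 6 tacrolimus libraries, in order of replicate, with mean and SD as bars. Every gene overlaps between the groups, and Sod2 has 4 of 6 drug libraries below the lowest vehicle library (152).

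Among the 9 related lists no gene was called with tacrolimus (limma), with 6 genes at an unadjusted p under 0.05 among 126 tested (over all genes 8.58% had such a p) and list medians between -0.02 and 0.06. Gstz1, a glutathione S-transferase of tyrosine breakdown, was 60.5 ± 3.32 FPKM with vehicle and 70.01 ± 4.39 with tacrolimus (log2 fold change 0.21, limma adjusted p = 0.160), and it was called with array weights (0.24, limma adjusted p = 0.0393), as were 0.497% of all genes. Slc48a1, a haem transporter, was 45.6 and 51.0 (0.16, limma adjusted p = 0.219). Glrx2 and Txnrd2, both mitochondrial thiol enzymes, were at -0.21 and -0.14 (limma adjusted p = 0.497 and 0.552). Akr1b8, an aldo-keto reductase, ranged from 2.53 to 29.7 FPKM over the 12 libraries. In the same libraries all 5 tested distal convoluted tubule markers fell, each called by limma (summed level 291 to 366 with vehicle and 51.1 to 78.7 with tacrolimus). Adipocyte markers had 2 of 7 called lower, Ucp1 (15.1 ± 7.73 and 0.619 ± 0.984 FPKM, log2 fold change -3.33, limma adjusted p = 0.000844) and Cidea (10.3 ± 3.70 and 3.28 ± 1.20, -1.36, 0.0288), with all 7 below 0 (median -0.88) and summed levels of 94.9 to 294 and 51.9 to 157. No marker of the other lists was called with tacrolimus, and the part of either cell type in these values was not tested.

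To compare the drugs, the log2 fold change under tacrolimus was subtracted from that under cyclosporine A, each taken against its own vehicle. Of the 10 genes 1 was called, Gclm, against 1.64% of 13392 genes tested (220 genes). The subtraction of 0.14 (tacrolimus) from -0.75 (cyclosporine A) gave a difference of -0.89 (SE 0.20, 95% interval -1.33 to -0.46, limma adjusted p = 0.0430). Cat (-0.66, SE 0.16, limma adjusted p = 0.0511), Gclc (-0.91, SE 0.23, 0.0629) and Txnrd1 (-0.54, SE 0.15, 0.0874) missed the threshold. With 1 library left out the Gclm difference stayed between -1.04 and -0.71. The call was lost without saline replicate 1, 2, 3 or 4 (limma adjusted p = 0.126, 0.118, 0.103 and 0.0984), cyclosporine A replicate 1 or 3 (0.0933 and 0.0664), tacrolimus replicate 3 (0.0561) or DMSO/PEG replicate 1 or 3 (0.0508 and 0.0513). Without cyclosporine A replicate 2 there were 4 calls among the 10 (2.05% of all genes in that fit), and without cyclosporine A replicate 4 there were 3 (1.81%). Drug, vehicle and table go together here and cannot be told apart.

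Of the 123 genes of the related lists 5 were called in the same comparison. One was Gss, at -0.88 under cyclosporine A and 0.08 under tacrolimus (difference -0.96, SE 0.14, limma adjusted p = 0.00498). Osgin1 (-0.59 and 0.17, limma adjusted p = 0.0288), Dao (-0.58 and 0.13, 0.0394) and Gstk1 (-0.41 and 0.09, 0.0498) were called in the same direction. Gstm7 was the called gene of the lists in the other direction (0.44 and -0.23, difference 0.67, limma adjusted p = 0.0475), and its difference turned to -0.62 on deposited FPKM. Gss was called in each of the 20 fits that left out 1 library (limma adjusted p = 0.00339 to 0.0356). With 1 library left out the differences of the other 4 stayed between -0.86 and -0.65 (Osgin1), -0.78 and -0.59 (Dao), -0.54 and -0.42 (Gstk1) and 0.60 and 0.77 (Gstm7). Osgin1 was not called without saline replicate 1, 2, 3 or 4 or cyclosporine A replicate 1 (0.0733 to 0.0918), and Dao was not called without any 1 of the saline libraries, cyclosporine A replicate 1 or 2, tacrolimus replicate 3 or DMSO/PEG replicate 2 (up to 0.107). Gstk1 kept its call only without cyclosporine A replicate 4, tacrolimus replicate 1, 3, 4 or 5 or DMSO/PEG replicate 3 or 5, and otherwise had a limma adjusted p of up to 0.151. Gstm7 kept its call only without saline replicate 1, cyclosporine A replicate 2, tacrolimus replicate 6 or DMSO/PEG replicate 4 or 6, and otherwise had one of up to 0.131.

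**Figure D5:**
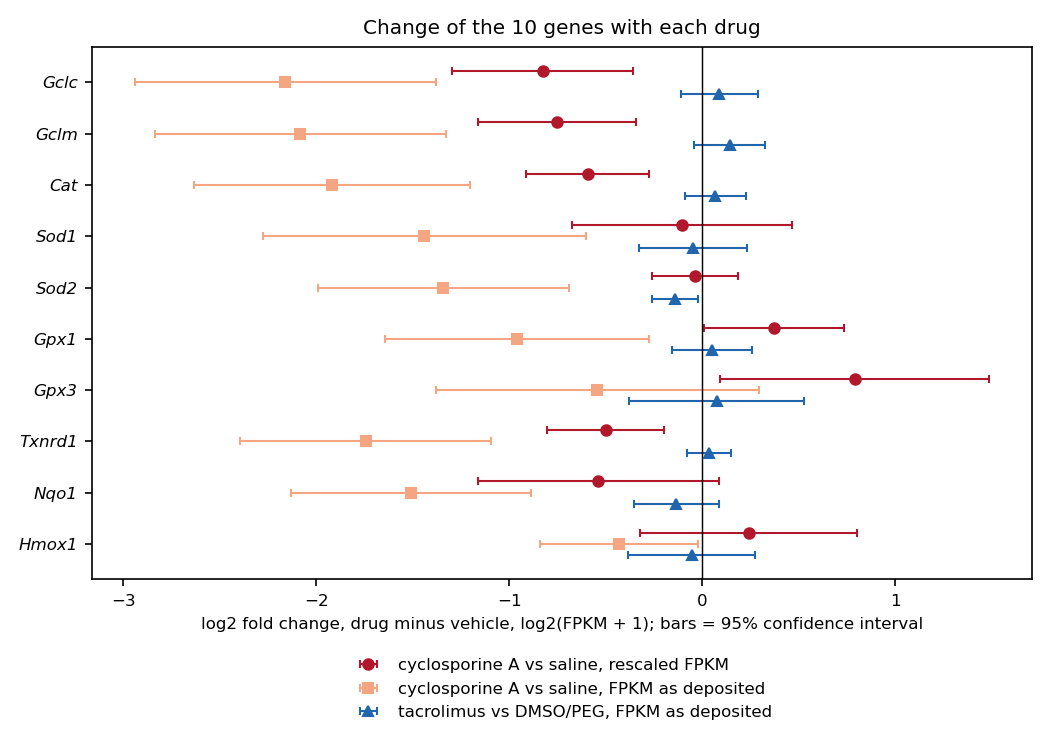
Log2 fold change of each gene with its 95% confidence interval, on log2(FPKM + 1), for cyclosporine A on rescaled FPKM (red circles) and on deposited FPKM (light squares) and for tacrolimus (blue triangles); the vertical line is 0. Tacrolimus values lie between -0.14 and 0.14, rescaled cyclosporine A values run from -0.83 (Gclc) to 0.79 (Gpx3), and all 10 deposited cyclosporine A values are below 0.

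The promoters of the ligase subunits and of Txnrd1 are shown because the means of these genes were low together under cyclosporine A. Nrf2 binds DNA with small Maf proteins at antioxidant response elements, written here as TGACNNNGC or, on the other strand, GCNNNGTCA. RefSeq windows of assembly GRCr8 (250 bases before to 50 after a gene's start) matched 9 of the 10 genes by symbol, all except Hmox1. The 250 bases before the start are printed 5′ to 3′ on the gene's strand, with any match in capitals: Gclc from chr8:87510226-87510475 (+), Gclm from chr2:213031885-213032134 (+) and Txnrd1 from chr7:22755905-22756154 (-).
Gclc: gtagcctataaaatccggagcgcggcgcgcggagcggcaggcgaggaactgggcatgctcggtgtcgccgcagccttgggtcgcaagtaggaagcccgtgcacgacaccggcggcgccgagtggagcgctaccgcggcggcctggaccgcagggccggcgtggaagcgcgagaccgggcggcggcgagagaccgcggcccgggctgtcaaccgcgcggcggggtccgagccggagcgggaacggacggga
Gclm: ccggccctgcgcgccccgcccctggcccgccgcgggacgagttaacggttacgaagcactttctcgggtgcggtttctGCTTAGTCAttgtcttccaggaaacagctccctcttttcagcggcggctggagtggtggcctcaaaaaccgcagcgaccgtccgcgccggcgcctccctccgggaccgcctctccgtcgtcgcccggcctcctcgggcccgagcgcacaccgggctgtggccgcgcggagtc
Txnrd1: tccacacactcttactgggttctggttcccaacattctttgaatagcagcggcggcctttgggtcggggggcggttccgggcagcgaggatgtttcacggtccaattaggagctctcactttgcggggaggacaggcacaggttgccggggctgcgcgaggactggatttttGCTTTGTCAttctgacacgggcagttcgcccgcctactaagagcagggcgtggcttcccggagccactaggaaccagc
The 9 genes have 10 windows, since Txnrd1 has another at chr7:22764802-22765101, which held no match. Of the 10 windows 3 held a match, each in a different gene, against 12.06% of 33469 windows of all genes. The Gclm match, GCTTAGTCA, starts 172 bases before the gene's start, and the Txnrd1 match, GCTTTGTCA, starts 78 bases before it. Sod2, which was near the saline level on rescaled FPKM, held the third, GCAGGGTCA, 35 bases before its start. Gclc and Cat held none in these windows. A match of these letters describes the sequence and is not evidence of binding.

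Across the 8 libraries of the cyclosporine A table, the tested genes whose log2 values ran closest to Cat, the gene of the 10 with the smallest p, were Smim24 (Pearson r = 0.995), Aadat (r = 0.989) and Acy1 (r = 0.986). Across the 12 libraries of the tacrolimus table, the closest to Sod2 were Oaz2 (r = 0.934), Bex4 (r = 0.913) and SNORA66 (r = 0.903). These are descriptions over libraries that pool drug and vehicle and share their scaling.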

How the data were processed

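Total RNA of whole rat kidneys was sequenced (NEBNext library kit, per the labels' protocols). The submitters' processing notes name HISAT2 and the build rn6. The counting program, annotation release and strand setting are not given in the sources used here. The authors deposited FPKM for 32545 genes (cyclosporine A and saline) and 32883 genes (tacrolimus and DMSO/PEG), with gene lengths in bases as deposited. Whole fragments were recovered from FPKM and length within a tolerance of 0.001. With the listed length 74.1% and 100% of values came out whole, and 4445 of 18892 detected genes of the first table needed a shorter length. The deposited tacrolimus FPKM already follow median-of-ratios factors, and the cyclosporine A FPKM were rescaled with such factors over nuclear genes. Replicate libraries differed by more than counting noise (chi-square per degree of freedom 17.6 to 197).

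Genes with 10 fragments at the median library size in as many libraries as the smaller group and 15 fragments in all were tested with limma 3.58.1 (trend) in R 4.3.3 on log2(FPKM + 1), within each table, with Benjamini-Hochberg adjustment over all genes tested and a threshold of 0.05. The difference between drugs used both fits with Satterthwaite degrees of freedom. The steps were tested on simulated data. Python 3.11.15, pandas 2.3.3 and SciPy 1.17.1 were used for the rest.

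Named genes were all 10 members, up to 2 per related list (called genes with the largest change, otherwise the 2 smallest p), genes called in the difference, and the 3 genes closest by Pearson r to the member with the smallest p. Markers were named beside results they moved with. Genes named for the difference and the ratios were chosen after their values were seen. The members and lists were chosen with earlier results of these data known. Promoters came from RefSeq (GRCr8); positions of genes are as deposited.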

Additional observations from a re-analysis of the deposited data

Results flagged for a closer look

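In 4 groups of libraries 1 value lay far from the rest, by a gap that chance gives in about 1 in 20 groups, and 40 groups were looked at (10 genes in 4 groups). With cyclosporine A, Nqo1 was 3.17 rescaled FPKM in replicate 4 while the other 3 libraries were 1.90 to 2.00. With saline, Hmox1 was 1.64 rescaled FPKM in replicate 2 while the others were 0.654 to 0.753. With tacrolimus, Gclm was 1026 FPKM in replicate 3 while the others were 827 to 896, and Gpx3 was 22355 FPKM in replicate 6 while the others were 15425 to 17649.

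The change of Gclm differed between the drugs by a test of the difference itself, at -0.89 on the log2 scale (cyclosporine A minus tacrolimus, SE 0.20, limma adjusted p = 0.0430). The call was lost in 9 of the 20 fits that left out 1 library, each saline library among them (limma adjusted p up to 0.126), while the difference stayed between -1.04 and -0.71. Drug, vehicle and table cannot be told apart in it.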

How the results depend on the processing

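Members called with cyclosporine A numbered 0 (against 0.609% of all genes), 9 on deposited FPKM (81.1%), 2 with voom (2.01%), and 0 to 1 when 1 library was left out. For the difference between drugs they numbered 1 (against 1.64% of all genes), 8 on deposited FPKM, and 0 to 4 with 1 library left out. On deposited FPKM most of all genes were called in the difference as well, as the counts below give. With tacrolimus they numbered 0 under every alternative run. Adding the replicate block left 0, 0 and 1 members called, and took Gstm7, Gstk1 and Dao out of the difference calls (limma adjusted p = 0.0812, 0.102 and 0.0608). The share of all genes called in the difference with that block is not given here. Same-numbered libraries correlated from -0.15 to 0.21 (cyclosporine A table) and -0.15 to 0.18 (tacrolimus table), so the numbers are not taken as pairs.

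Over all genes, the cyclosporine A calls (82) became 1 without a filter, 270 with voom, 149 with array weights, 6 with the replicate block, 10911 as deposited and 1 to 139 with 1 library left out. The tacrolimus calls (47) became 77 with array weights. The difference calls (220) became 10068 as deposited and 27 to 274 with 1 library left out.

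On deposited FPKM the cyclosporine A change reversed for Hmox1 (-0.43), Gpx1 (-0.96), Gpx3 (-0.54), Nfe2l2 (-0.94), Gpx2 (-0.31), Gpx8 (-0.42), Glrx (-0.33), Rac2 (-0.28) and Hp (-0.0252), and the difference reversed for Hmox1 (-0.38), Sod2 (-1.20), Gpx1 (-1.01), Gpx3 (-0.62) and Gstm7 (-0.62). With array weights Sod1 (0.0775) and Sod2 (0.00374) reversed with cyclosporine A, and Hmox1 (0.0187) with tacrolimus. Sod2 was 0.0512 when scaled to nuclear fragments. With 1 library left out, values on both sides of 0 were seen for Sod1 (-0.25 to 0.18) and Sod2 (-0.0983 to 0.0173) with cyclosporine A, for Hmox1 (-0.15 to 0.0329), Sod1 (-0.11 to 0.0265) and Gpx1 (-0.00518 to 0.10) with tacrolimus, and for the Sod1 difference (-0.20 to 0.23). The cause was not tested.

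Hmox1 and Nqo1 rest on few fragments in the cyclosporine A table (16 to 105 and 58 to 544). Their SD between saline libraries was 50.4% and 53.2% of the mean. The parts of depth and of spread between libraries in their intervals were not tested.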
